A study of Homo sapiens with 6 samples.

Results

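The genes described here are 10 transcripts used as markers of ovarian carcinoma and of the Mullerian epithelium: PAX8, WT1, MUC16, MSLN, SOX17, WFDC2, FOLR1, EMX2, ESR1 and PGR. They were chosen as a list of symbols, and each of the 10 was matched to 1 of the 63677 gene identifiers in the deposited count table. RNA was profiled in UWB1.289, a human ovarian cancer cell line that the study describes as BRCA1-deficient and that the labels give as genotype WT, after 24 h with the PARP inhibitor Olaparib at 4 µM (3 samples) or with DMSO, the vehicle (3 samples). The design text of the series gives 10 µM, whereas the sample labels and the study's methods give 4 µM. Both groups are the same cell line grown in the same medium, so these data describe 1 line and hold no normal tissue or other tumor for comparison. The labels give 3 dishes of 15 cm per condition, and the study's methods call the 3 replicates of each readout independent, so p-values here measure the spread between such replicates of 1 line.

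The Mullerian ducts are the embryonic tubes that form the fallopian tubes, the uterus and the upper vagina, and many ovarian carcinomas of serous type resemble their epithelium. Markers used to recognize these tumors therefore include transcription factors (PAX8, SOX17 and WT1) and the receptors for estrogen and progesterone (ESR1 and PGR). They also include antigens of the cell surface or the blood (MUC16, which carries the CA125 epitope, MSLN, FOLR1 and WFDC2, known as HE4). EMX2 is listed here as a developmental factor of this lineage. MSLN binds MUC16 on neighboring cells, and FOLR1 and MSLN are targets of antibody drugs.

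UWB1.289 cells expressed 6 of the 10 markers, and the other 4 were at or near the limit of counting. PAX8, SOX17, MSLN, MUC16, WFDC2 and FOLR1 had between 76 and 12233 counts in every sample. WT1, EMX2 and PGR had 2 counts or fewer in every sample, which is under the limit of 3 counts that a count of 0 allows, and ESR1, with 5 counts at most, passed that limit in 2 DMSO samples but not the filter on low counts. Of the 6 tested markers, PAX8 rose after Olaparib by 0.10 on the log2 scale, a call that was lost with upper quartile scaling and when any of 5 of the 6 samples was left out, and no difference of the other 5 passed an adjusted p of 0.05. In bulk RNA, fewer cells with a transcript and less of it per cell cannot be told apart. Libraries held 35360458 to 39640775 counts, and the members together took 0.0518% to 0.0563% of them, with 58.9% of the members' counts in PAX8. This limit and the intervals on counts below cover counting error only.

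**Figure D1:**
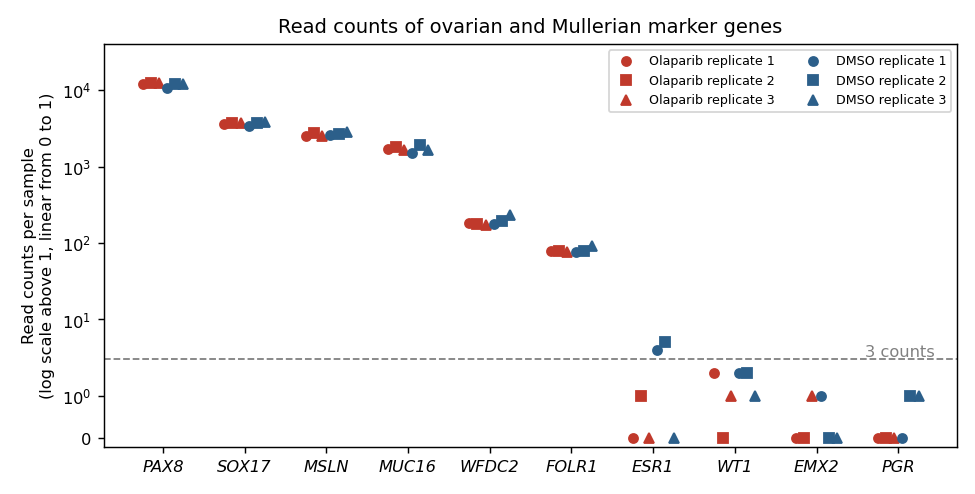
Read counts of the 10 marker genes (x axis) in each of the 6 samples (y axis, log scale above 1 and linear from 0 to 1), with Olaparib in red, DMSO in blue and the replicate number as the shape. The dashed line marks 3 counts, and 6 genes lie far above it in every sample while WT1, EMX2 and PGR lie below it and ESR1 passes it in 2 DMSO samples.

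The promoters of 3 markers are shown because they contrast markers with many reads (PAX8), with few reads (WFDC2) and at the limit of detection (PGR), and because the start in RefSeq is also the start of the annotated gene. RefSeq starts were at hand for 7 members (PAX8, WT1, MUC16, WFDC2, EMX2, ESR1 and PGR), matched by symbol. Each sequence is the 250 bases before the start on GRCh38.p14, written 5′ to 3′ on the strand of the gene, with CCAAT, or ATTGG on the other strand, in capitals. The windows are chr2:113278922-113279171 on the minus strand for PAX8, chr20:45469503-45469752 on the plus strand for WFDC2 and chr11:101129814-101130063 on the minus strand for PGR.
PAX8: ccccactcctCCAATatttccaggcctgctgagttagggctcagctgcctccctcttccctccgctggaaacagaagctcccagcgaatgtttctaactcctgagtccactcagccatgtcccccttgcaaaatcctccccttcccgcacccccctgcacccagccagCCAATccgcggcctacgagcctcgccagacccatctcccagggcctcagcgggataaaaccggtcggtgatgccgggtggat
WFDC2: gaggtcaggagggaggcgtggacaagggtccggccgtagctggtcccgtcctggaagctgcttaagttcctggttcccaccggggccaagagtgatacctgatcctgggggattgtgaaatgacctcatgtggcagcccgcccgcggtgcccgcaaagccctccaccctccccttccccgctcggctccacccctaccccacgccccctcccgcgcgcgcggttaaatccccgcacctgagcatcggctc
PGR: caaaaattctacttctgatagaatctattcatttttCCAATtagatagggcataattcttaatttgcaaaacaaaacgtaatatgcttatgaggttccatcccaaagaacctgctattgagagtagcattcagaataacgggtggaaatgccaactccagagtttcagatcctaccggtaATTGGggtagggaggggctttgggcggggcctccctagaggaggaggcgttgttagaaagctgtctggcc
CCAAT in either direction, the letters of the CCAAT box, was found 2 times in the PAX8 window, 2 times in the PGR window and 0 times in that of WFDC2, and 32% of the 35116 promoter windows in the table hold it. TATAAA, on the strand of the gene, was in none of the 7 members' windows and in 6.8% of all windows. The PAX8 window held 11 CpG dinucleotides, that of WFDC2 19 and that of PGR 5, where the median window held 11. WT1 and EMX2, both at the limit of detection, had 19 and 20 CpG, and MUC16, which was read, had 6. For these 3 genes the RefSeq start differed from the annotated start, by 25, 301 and 19 bases for WT1, EMX2 and MUC16. The EMX2 window therefore lies inside the annotated gene. WT1 had 4 RefSeq starts and MUC16 2, and the start nearest to the annotated start was used. DNA methylation and factor binding were not measured.

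Levels of different genes were compared as TPM (transcript abundance per length and depth), that is, counts divided by the merged exon length and scaled to the same sum in every sample. The lineage factors PAX8 and SOX17 were the highest, with 156 ± 6.24 and 151 ± 2.21 TPM (SD, n = 6), which placed them at percentiles 95.4 and 95.2 of the 20867 tested genes with an annotated length. Their ranges over the 6 samples overlapped (148.8 to 164.7 TPM for PAX8 and 149.6 to 155.6 TPM for SOX17), so their order was not resolved at this length. MSLN came next with 99.7 ± 4.29 TPM (91.9th percentile), followed by WFDC2 with 13.70 ± 1.101 TPM (63.4th percentile). FOLR1 had 4.86 ± 0.194 TPM and MUC16 3.73 ± 0.286 TPM, close to the middle of all tested genes (48.9th and 45.7th percentile). From SOX17 down to MUC16, the ranges of neighbors in this order did not overlap. The PAX8 level was 41.9 times that of MUC16 at merged exon length. MUC16 is the longest of the 10, with 44165 bases of merged exons against 1601 for FOLR1, and it ranked below FOLR1 per length even though its counts (1505 to 1902) were far above those of FOLR1 (76 to 91). When the longest annotated transcript was used as the length, each of the 6 genes was at the same place in the order. The levels themselves changed, to 203.8 TPM for PAX8, 111.1 TPM for SOX17 and 2.76 TPM for MUC16, so ratios between genes depend on the length.

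**Figure D2:**
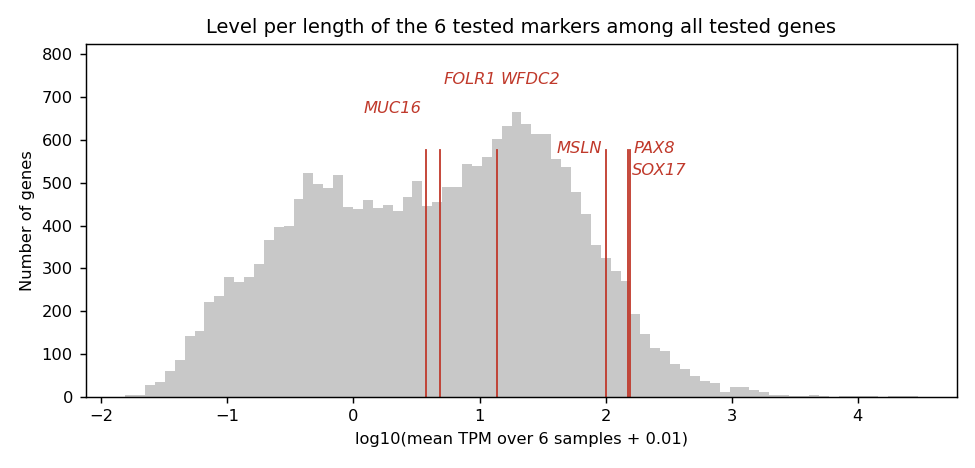
Distribution of mean TPM over the 6 samples for the 20867 tested genes with an annotated length (x axis, log10 of TPM + 0.01, y axis, number of genes), with red lines at the 6 tested markers. PAX8, SOX17 and MSLN lie in the upper tail, and WFDC2, FOLR1 and MUC16 lie within the bulk of expressed genes.

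Differences between Olaparib and DMSO were tested for the 21729 genes with more than 10 counts in total. The test was the quasi-likelihood test of edgeR, with p-values adjusted over all of these genes by the method of Benjamini and Hochberg. Under an adjusted p of 0.05, 1 of the 6 tested members was called, and 3.36% of all genes tested were. It was higher after Olaparib, as were 2.15% of all genes tested, and 1.21% were lower. When edgeR calls also had to pass a fold of 1.2 in either direction, 0 members and 1.21% of all genes were left. The unadjusted p of 1 member was under 0.05, as was that of 14.8% of all genes tested. DESeq2 called 1 member without the fold condition, and 3.91% of the genes to which it gave an adjusted p. The median log2 fold change of the 6 members was 0.00065, with 3 higher and 3 lower, where the median of all genes tested was -0.0042. Normalized counts below are scaled to a common library size with TMM factors.

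PAX8 (ENSG00000125618, chromosome 2, 113215997 to 113278921 on GRCh38, minus strand) encodes a paired-box transcription factor needed for the thyroid, the kidney and the Mullerian ducts. It gave normalized counts of 12128, 12518 and 12160 in the Olaparib samples and of 11075, 11712 and 11499 in the DMSO samples. All 3 Olaparib samples were above all 3 DMSO samples, as was so, in either direction, for 19.3% of all genes tested. The rise from 11429 ± 324 to 12269 ± 216 in the mean (SD, normalized counts, n = 3 each) was a log2 fold change of 0.10 (standard error 0.029, 95% interval 0.044 to 0.16, edgeR quasi-likelihood adjusted p = 0.0399), or 1.07-fold. The adjusted p was 0.0250 from DESeq2 and 0.0349 from limma voom, but 0.0604 from edgeR with upper quartile scaling. The edgeR adjusted p lay between 0.0726 and 0.202 when Olaparib replicate 2 or 3 or any 1 DMSO sample was left out, and was 0.0301 without Olaparib replicate 1, while the log2 fold change stayed between 0.084 and 0.12. PAX8-AS1, a long noncoding RNA on the opposite strand, shares 22.4% of the exonic bases of PAX8. It had 4 to 16 counts per sample, and the libraries were made with a stranded kit, but the strand setting of the counting is not given in the sources used here, so reads of the shared part cannot be assigned with certainty.

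SOX17, on chromosome 8, encodes a transcription factor of endoderm and endothelium that also marks ovarian carcinoma. It gave normalized counts of 3620, 3765 and 3672 in the Olaparib samples and of 3560, 3626 and 3645 in the DMSO samples. The groups overlapped, and the log2 fold change of 0.030 (95% interval -0.042 to 0.10, edgeR adjusted p = 0.772) limits any rise to 1.07-fold and any fall to 0.971-fold. Its coefficient of variation between replicates was 1.99% after Olaparib and 1.23% after DMSO.

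MSLN (ENSG00000102854, chromosome 16, 760734 to 768865, plus strand) encodes mesothelin, a protein anchored to the surface of mesothelial cells and many carcinomas. Normalized counts were 2550, 2821 and 2511 with Olaparib and 2680, 2645 and 2712 after DMSO. Olaparib replicate 2 was above and the other two Olaparib samples were below all DMSO samples, and the log2 fold change was -0.028 (95% interval -0.11 to 0.057, edgeR adjusted p = 0.827). MUC16 (ENSG00000181143, chromosome 19, 8848844 to 9010390, minus strand) gave normalized counts of 1713, 1822 and 1655 in the Olaparib samples and of 1574, 1865 and 1539 in the DMSO samples. DMSO replicate 2 was the highest of the 6 samples, so the groups overlapped, and the log2 fold change was 0.060 (95% interval -0.048 to 0.17, edgeR adjusted p = 0.668). The biological coefficient of variation that edgeR fitted to MUC16, 0.0455, was above that of 99.5% of the 1000 genes closest to it in abundance. For MSLN it was 0.0384, above 89.6% of such genes, and for PAX8 0.0284, above 30%.

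WFDC2 (ENSG00000101443, chromosome 20, 45469753 to 45481532, plus strand) encodes a small secreted protein with WAP domains, the serum marker HE4. It gave normalized counts of 182, 182 and 172 in the Olaparib samples and of 187, 187 and 218 in the DMSO samples. All Olaparib samples were below all DMSO samples, and the groups did not overlap, in either direction, for 19.3% of all genes tested. DMSO replicate 3 stood apart at the top. The log2 fold change was -0.15 (standard error 0.093, 95% interval -0.34 to 0.041, edgeR adjusted p = 0.496), so the difference did not pass, and the interval reaches from a fall of 20.8% to a rise of 2.89%. FOLR1 (ENSG00000110195, chromosome 11, 72189558 to 72196323, plus strand), the folate receptor alpha, gave normalized counts of 79.96, 80.01 and 76.54 in the Olaparib samples and of 79.46, 77.47 and 86.27 in the DMSO samples. The groups overlapped, with DMSO replicate 3 the highest. Its log2 fold change was -0.042 (95% interval -0.32 to 0.23, edgeR adjusted p = 0.936), and the interval reaches from 0.804-fold to 1.17-fold.

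**Figure D3:**
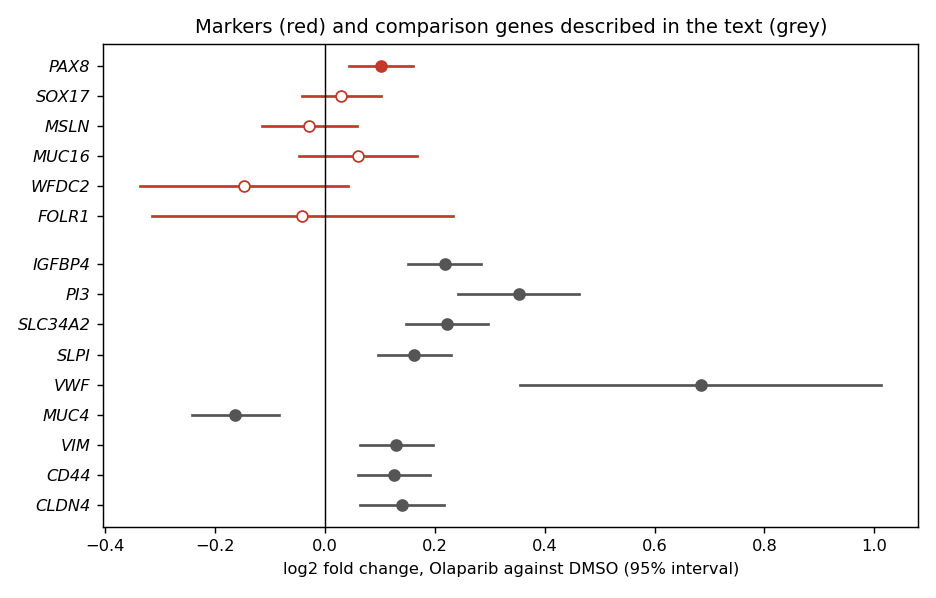
log2 fold change of Olaparib against DMSO (x axis) with its 95% interval from edgeR's quasi-likelihood fit, for the 6 tested markers (red) and 9 comparison genes with an adjusted p under 0.05 that are described in the text (grey). Filled points have an adjusted p under 0.05, and PAX8 is the only filled point among the markers, at 0.10.

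The 4 markers below the filter on low counts include a lineage factor of the kidney, the gonads and the mesothelium, WT1 (ENSG00000184937, chromosome 11, 32387775 to 32435564, minus strand). Its counts were 2, 0 and 1 after Olaparib and 2, 2 and 1 after DMSO, and 3 counts correspond to at most 0.0382 TPM. WT1 is commonly used as a marker of serous ovarian carcinoma, and here it was at the limit of detection while PAX8 and SOX17 were high. EMX2 (ENSG00000170370, chromosome 10, 117542445 to 117549546, plus strand), a homeobox gene of the urogenital tract and the forebrain, had 0, 0 and 1 counts after Olaparib and 1, 0 and 0 after DMSO. PGR (ENSG00000082175, chromosome 11, 101029624 to 101129813, minus strand), the progesterone receptor and itself an estrogen-induced gene, had 0 counts in each Olaparib sample and 0, 1 and 1 after DMSO. No fold change is given for these 3 genes, since both groups were under 3 counts per library.

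ESR1 (ENSG00000091831, chromosome 6, 151656691 to 152129619, plus strand), the estrogen receptor alpha, had 0, 1 and 0 counts after Olaparib and 4, 5 and 0 after DMSO. The counts above 1 came from DMSO replicates 1 and 2, and DMSO replicate 3 had none. With 10 counts in total it did not pass the filter on low counts. The summed counts, 1 against 9, give an Olaparib to DMSO ratio of 0.113 with an exact (Clopper-Pearson) 95% interval of 0.00257 to 0.813, which treats reads as independent and leaves out the spread between samples. When all 34048 genes with at least 1 count were tested with edgeR, ESR1 had an unadjusted p of 0.0245 and an adjusted p of 0.323, so no difference was established. The antisense partners WT1-AS and EMX2OS had 0 or 1 count in each sample.

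Of 11 paralogs, 8 were tested and 0 had an adjusted p under 0.05 in edgeR (0 at an unadjusted p under 0.05, and 0 with DESeq2). PAX2, the paired-box relative of PAX8 in the Mullerian and kidney lineages, had 1 count in 1 sample, and PAX5 had 3 to 6 counts. EMX1 had 1 count in 1 sample and STRC, a relative of MSLN, 1 count in each of 2 samples. SOX7 and SOX18, the other members of the SOX17 group, had 9 to 18 and 2 to 9 counts. OTOA and ESR2, the estrogen receptor beta, had 3 to 9 and 1 to 6. MSLNL had 29 to 49 counts and FOLR3 3 to 8. FOLR2, the folate receptor beta best known from macrophages, was above FOLR1 in every sample, with 201 to 233 counts and 14.5 ± 0.527 TPM, and did not pass the test (log2 fold change -0.020, edgeR adjusted p = 0.951). These receptors are close relatives, and how reads that fit several of them were treated is not given.

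Around the lineage factors, the genes of Mullerian duct patterning ranged from high levels to no or few counts. WNT7A, a ligand required for the oviduct and uterus, had 86.2 ± 3.66 TPM, near MSLN, and was higher in all 3 Olaparib samples (log2 fold change 0.11, edgeR adjusted p = 0.0860, not past the threshold). HOXA10 had 18.8 ± 0.634 TPM and MECOM 10.8 ± 0.640 TPM, whereas WNT9B had no count and AMHR2, the receptor for the hormone that makes the ducts regress, had 2 counts in 1 sample. Of 12 matched genes, 8 were tested and 0 had an adjusted p under 0.05 with edgeR or DESeq2 (1 at an unadjusted p under 0.05). Of the 15 symbols of this list, 3 matched no row by their current identifiers and were not analysed here, LHX1 and DACH1 among them. In the list for the fallopian tube, all 10 genes were tested and 1 rose, where 2.15% of all genes tested rose. KRT7 (3575 ± 84.5 TPM) and CCND1 (819 ± 25.0 TPM) led it, and OVGP1, the secretory glycoprotein of the oviduct, had 70 to 122 counts. Genes of ciliated cells were mixed. FOXJ1, a factor of these cells, had 2 to 9 counts, PIFO 5 to 9 and TPPP3 0 to 6, whereas DNAH5 had 221 to 248, CCDC78 97 to 145 and CAPS 69 to 81. The gene that rose was CD44, a hyaluronan receptor (log2 fold change 0.13, edgeR adjusted p = 0.0201). The call was lost without Olaparib replicate 1 or DMSO replicate 2 or 3 (edgeR adjusted p up to 0.214).

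Of 14 other antigens of ovarian carcinoma tested, 3 rose and 0 fell, with a median log2 fold change of 0.12. Over all genes tested, 2.15% rose and 1.21% fell, with a median of -0.0042. The lists were chosen with earlier results of these data known, so no enrichment is read from such counts. EPCAM and SLPI had the highest levels, with 1109 ± 26.0 and 923 ± 58.5 TPM, and CD24 was listed at 0 in every sample. SLC34A2, a phosphate transporter that is a target of antibody drugs, gave normalized counts of 5570, 5620 and 5264 in the Olaparib samples and of 4413, 4884 and 4802 in the DMSO samples. Its log2 fold change was 0.22 (standard error 0.037, edgeR adjusted p = 1.7e-04), with no overlap of the groups and an adjusted p of at most 0.00380 when any 1 sample was left out. CLDN4, a tight junction protein, rose by 0.14 on the log2 scale (edgeR adjusted p = 0.0271). The call was lost without Olaparib replicate 2 or 3 or DMSO replicate 1 or 2 (edgeR adjusted p up to 0.180). SLPI, the third of the genes that rose, is also a relative of WFDC2 and is described with it.

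WFDC2 belongs to a family of WAP-domain proteins, and 2 of its 6 tested relatives rose while WFDC2 itself did not pass. Of all genes tested, 2.15% rose. SLPI, a secreted inhibitor of leukocyte proteases, gave normalized counts of 5744, 6016 and 6163 in the Olaparib samples and of 5328, 5336 and 5349 in the DMSO samples (log2 fold change 0.16, standard error 0.032, edgeR adjusted p = 0.00201). PI3, elafin, an inhibitor of elastase, gave normalized counts of 646, 737 and 678 in the Olaparib samples and of 552, 537 and 525 in the DMSO samples (log2 fold change 0.35, standard error 0.054, edgeR adjusted p = 7.0e-05). Both stayed under an adjusted p of 0.05 with any 1 sample left out. The 95% intervals were 0.24 to 0.46 for PI3, 0.097 to 0.23 for SLPI and -0.34 to 0.041 for WFDC2. WFDC3, WFDC5, WFDC12 and WFDC1 had at most 30 counts in any sample.

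**Figure D4:**
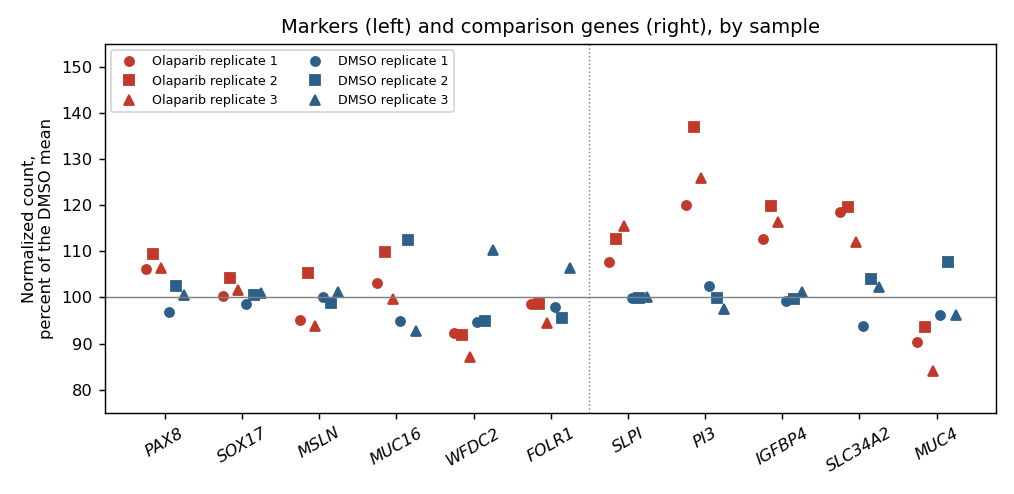
Normalized counts in each sample as a percentage of the mean of the 3 DMSO samples (y axis) for the 6 tested markers (left of the dotted line) and 5 comparison genes with an adjusted p under 0.05 (right), with Olaparib in red and DMSO in blue. The groups are separate for PAX8 and WFDC2 among the markers, as for 19.3% of all genes tested. The shift of PI3 is larger than that of any marker.

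MUC16 was not the leading mucin. MUC1, a mucin of most simple epithelia, had 42.0 ± 3.95 TPM and MUC4 27.2 ± 2.29 TPM, and of the 14 genes of the list of mucins and MUC16 partners 8 had 2 counts or fewer in every sample, MUC2, MUC5AC and MUC5B among them. LGALS1, a galectin that binds MUC16, had 841 ± 35.2 TPM. Of 6 tested genes of this list, 1 fell and 0 rose, where 1.21% of all genes tested fell and 2.15% rose. MUC4 gave normalized counts of 5617, 5822 and 5224 in the Olaparib samples and of 5979, 6691 and 5987 in the DMSO samples (log2 fold change -0.16, standard error 0.039, edgeR adjusted p = 0.0118). This call was not made by DESeq2 (adjusted p = 0.231) and was lost without Olaparib replicate 3 or DMSO replicate 2 (edgeR adjusted p up to 0.242).

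Among genes of folate uptake and use, the setting of FOLR1, TYMS, SHMT2 and FPGS had the highest levels, 410 ± 5.95, 221 ± 5.88 and 95.03 ± 3.87 TPM. TYMS makes thymidylate, SHMT2 passes 1-carbon units from serine to folate in mitochondria, and FPGS retains folates in the cell. Their log2 fold changes were -0.021, 0.031 and 0.071, and none of these 3 passed the test (edgeR adjusted p = 0.806, 0.721 and 0.378).

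Of 10 hormone receptors and related genes other than ESR1 and PGR, all tested, 0 had an adjusted p under 0.05 with edgeR or DESeq2, and 0 an unadjusted p under 0.05. NR3C1, the glucocorticoid receptor, had 10.0 ± 0.645 TPM and NR3C2, the mineralocorticoid receptor, 5.90 ± 0.335 TPM. The membrane protein PGRMC1, which is unrelated to PGR in sequence, had 490 ± 12.6 TPM. Of 18 genes known to be induced by estrogen, 13 were tested. TFF1, TFF3, AGR2 and AGR3 were listed at 0 in every sample, whereas CCND1, STC2 and IGFBP4 had 819 ± 25.0, 292 ± 7.74 and 230 ± 18.9 TPM. Of these 13, 1 rose and 0 fell, where 2.15% of all genes tested rose and 1.21% fell. The gene was IGFBP4, a binding protein of insulin-like growth factors, which gave normalized counts of 5425, 5769 and 5607 in the Olaparib samples and of 4775, 4801 and 4871 in the DMSO samples (log2 fold change 0.22, standard error 0.033, edgeR adjusted p = 5.1e-05). Among 8 genes known as WT1 targets, 5 were tested and 0 had an adjusted p under 0.05 with edgeR or DESeq2 (1 at an unadjusted p under 0.05). PODXL, podocalyxin, had 284 ± 7.02 TPM without measurable WT1, and NPHS1 had 2 counts at most.

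The label of the line was set against markers of other tissues and cell types. Epithelial genes were among the highest of all, with KRT18 at 4368 ± 130 TPM, KRT7 at 3575 ± 84.5 and KRT8 at 2097 ± 66.3, while CDH1 had 21.9 ± 1.24 TPM. In the pathology panel, CDKN2A had 172 ± 5.36 TPM, VIM 166.5 ± 8.998 and MKI67 81.6 ± 3.89, and the intestinal markers KRT20 and CDX2 had at most 1 and 6 counts. VIM rose by 0.13 on the log2 scale (edgeR adjusted p = 0.0161), a call lost without Olaparib replicate 2 or 3 or DMSO replicate 1 or 2 (edgeR adjusted p up to 0.182). Thyroid and kidney, the other PAX8 tissues, gave 1.02 to 1.47 CPM (counts scaled for library size) over 10 genes together in the 6 samples, with AQP2 and UMOD at 0.

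Of the mesothelial genes, CALB2 (31 to 40 counts), UPK3B (100 to 128), LRRN4 (330 to 447) and PDPN (628 to 823) were present, HAS1, ITLN1 and DES were at 3 counts or fewer, and 0 of the 6 tested had an adjusted p under 0.05 with edgeR or DESeq2 (2 at an unadjusted p under 0.05). The list summed to 29.96 to 32.4 CPM after Olaparib and 34.6 to 37.7 after DMSO. In the lists for stroma, immune cells, endothelium, granulosa and theca cells and germ cells, levels were mixed. LUM, PECAM1 and FSHR were listed at 0, and COL3A1, DCN, CD3E and MS4A1 had 3 counts or fewer in every sample. COL1A2 had 1344 to 1557 counts (13.1 ± 0.438 TPM) and COL1A1 237 to 328, and CD14 had 33 to 55, PTPRC 53 to 75, KDR 74 to 105 and POU5F1 76 to 116. Summed levels in CPM ranged from 44.2 to 49.4 after Olaparib and 46.1 to 49.4 after DMSO for stroma, 3.71 to 4.25 and 2.99 to 3.85 for immune cells, 44.2 to 45.6 and 45.4 to 48.2 for endothelium, 0.545 to 0.690 and 0.735 to 1.16 for granulosa and theca cells, and 2.34 to 3.31 and 2.27 to 2.80 for germ cells. CDH5, the endothelial cadherin, had 1457 to 1772 counts (25.3 ± 0.976 TPM). The gene models used for counting may differ from the current ones, so a gene listed at 0 in every sample, such as PECAM1 or CD24, is not read here as absent. VWF, the von Willebrand factor, was the 1 gene of these 5 lists with an adjusted p under 0.05, where 3.36% of all genes tested passed. It gave normalized counts of 63.8, 69.7 and 68.6 in the Olaparib samples and of 39.7, 42.2 and 43.6 in the DMSO samples (log2 fold change 0.68, standard error 0.16, edgeR adjusted p = 0.0106, 0.0710 from DESeq2 and 0.0510 from edgeR without DMSO replicate 1). The part of other cells in the members' values was not tested.

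**Figure D5:**
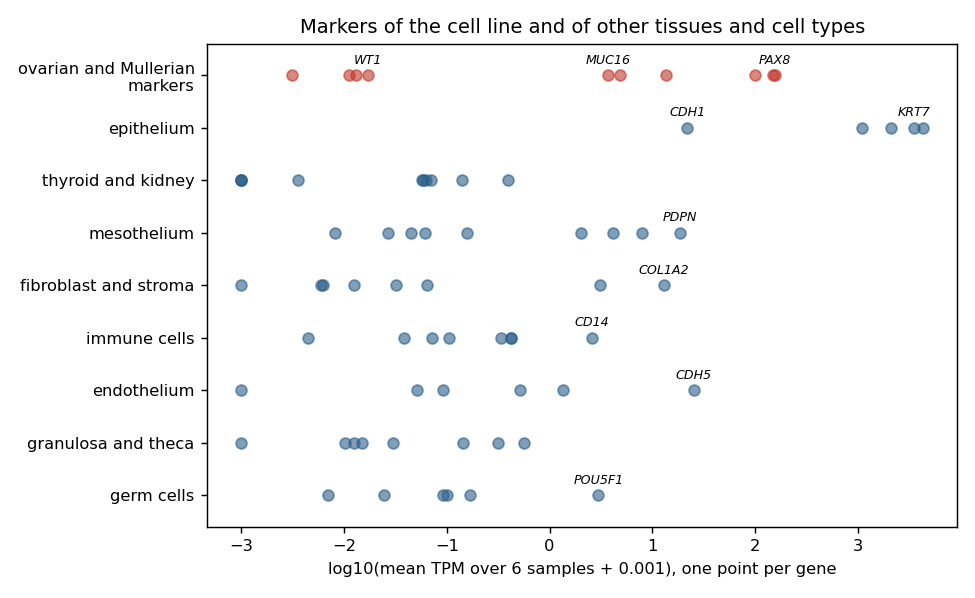
Mean TPM over the 6 samples (x axis, log10 of TPM + 0.001) of each gene, 1 point per gene, in the lists of markers (y axis), with the 10 ovarian and Mullerian markers in red. The red points fall into 6 from MUC16 to PAX8 and 4 at the left around WT1, and in the lists of other cell types most points lie below 1 TPM, with CDH5, PDPN and COL1A2 as the highest.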

How the data were processed

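RNA of 6 samples was sequenced as polyA RNA. Per the study's methods, the authors used Trimmomatic for adapters, STAR for alignment (GRCh38), Picard to mark duplicates and featureCounts for counting. The deposited values are raw counts for each gene identifier. The strand setting and the removal of duplicates are not given in the sources used here. All 6 samples were matched by their descriptions. Gene names, coordinates and lengths came from GENCODE release 44, which held 81.9% of the 63677 identifiers. The other identifiers took 0.561% to 0.600% of the counts and had no TPM. The gene models used for counting may differ from release 44, so TPM rest on lengths that may not be those counted.

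Genes with more than 10 counts in total were kept, scaled by TMM and tested with edgeR 4.0.16 (R 4.3.3), without a replicate block. The study used DESeq2 with the same filter. DESeq2 1.42.0, limma 3.58.1 (voom), other scalings and filters, a block and leaving out each sample were tried as alternatives. Replicates differed by more than sampling noise (chi-square per degree of freedom from 1.81 to 4.11 over 15525 genes). Intervals were 95%. Some genes of the comparison lists are not reported here. The members and all gene lists were chosen with earlier results of these data known, the lists from general knowledge. Named in the text were all members, their paralogs and antisense partners. From each list, the reported genes with an adjusted p under 0.05 and those with the highest TPM were named. The latter were at most 3 per list, not all printed, to limit the number of names. Genes with no or few counts and defining markers were also named, and these were chosen after their values were seen.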

Additional observations from a re-analysis of the deposited data

How the results depend on the processing

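The log2 fold changes of SOX17, MUC16 and WFDC2 kept their direction, and those of all 5 uncalled members their side of the threshold, in all 13 alternatives. With 1 sample left out, SOX17 ranged from 0.015 (without Olaparib replicate 2) to 0.042, MUC16 from 0.0074 (without DMSO replicate 3) to 0.15 (without DMSO replicate 2), and WFDC2 from -0.19 to -0.069 (without DMSO replicate 3). MSLN ranged from -0.082 to 0.0032, turning without Olaparib replicate 3, and FOLR1 from -0.074 to 0.0070, turning without DMSO replicate 3. The count of members with an adjusted p under 0.05, 1 in the test as reported, was 0 with upper quartile scaling and 0 to 1 with 1 sample left out. The 6 tested members were also those with at least 1 TPM in every sample of either group and those with a count in every sample. Over all genes, 730 had an adjusted p under 0.05, and 389 (without DMSO replicate 3) to 864 (without Olaparib replicate 1) with 1 sample left out, with 450, 464 and 403 without Olaparib replicate 3, DMSO replicate 1 and DMSO replicate 2. With a fold above 1.2 as well, 262 were called, against 150 with DESeq2 and 65 with a fold above 1.5. With the replicate number as a block 1322 genes had an adjusted p under 0.05. Whether the numbers pair the samples is not settled here. Deviations from the group mean correlated at -0.15, 0.19 and -0.21 for same-numbered samples over 13121 genes. The highest correlation, 0.37, was between Olaparib replicate 3 and DMSO replicate 1, and not every sample correlated best with its own number. With 3 samples per group the deviations depend on one another, so they cannot exclude a pairing. PAX8 had an edgeR adjusted p of 0.00264 with the replicate number as a block. The count table holds no lengths, so levels with a length column were not run. Depth limits FOLR1 and WFDC2 most among the tested members, and the 4 markers at 5 counts or fewer did not reach the filter.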
